A study of Rattus norvegicus with 6 samples.

Results

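Annotated pseudogene loci were described in RNA of rat corneal epithelium, as the rows whose annotated transcript type holds the word pseudogene and that carried at least 1 count in any library. Of 1654 such rows, 1042 had a count (63.0%) and 612 had none, among 50929 loci with a count in all. The tissue was scraped from corneas of male Brown Norway rats 16 weeks after a single intraperitoneal injection of streptozocin at 50 mg/kg, a toxin of the insulin-producing beta cells (STZ group, 3 libraries), or of citrate buffer (NOR group, 3 libraries). No transgene or further treatment is named for either group. Neither the labels nor the methods state the age of the rats or how the corneas were divided among the libraries. P-values therefore measure the spread between these libraries, which may be partly technical.

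A pseudogene is a copy of a gene that the annotation regards as unable to give the gene's protein. Processed pseudogenes arise when a messenger RNA is reverse-transcribed and inserted elsewhere in the genome, so they lack the introns of the parent gene and usually its promoter, whereas unprocessed pseudogenes arise by duplication of the gene itself. Genes with abundant, short messenger RNAs in the germ line, above all those of ribosomal proteins, have left the most processed copies in mammalian genomes. Because a copy can be nearly identical to its parent, a short read may fit both places, and the counts of copies named below are uncertain in that respect.

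The upstream sequences of several members and of a parent gene are shown first, since the levels of a parent and its copy are set side by side below. RefSeq windows of 250 bases before the annotated start were found for 52 members that carry a single name. The windows below are given 5′ to 3′ on the gene's strand in build GRCr8, whereas the coordinates of the loci in the later text are those of rn6. In the first and the third, the capitals mark the longest run of letters that the copy shares with the window of its parent (250 bases before to 50 after the start). In the second, they mark the part of the shared run that lies before the start of Tpt1. For Pcbp1 and Il22ra1, they mark GGGCGG, the GC box, on either strand. Tpt1l3, at chr1:20926595-20926844 (+), is the RefSeq name of the Tpt1 copy LOC100360791. Tpt1 itself, at chr15:57565894-57566143 (+), encodes the translationally controlled tumour protein. Gsta4l1, at chr10:68505453-68505702 (-), is the name of LOC688925, a copy of the glutathione transferase gene Gsta4. Pcbp1, at chr4:120532108-120532357 (-), is the gene that RefSeq gives for AABR07073038, and Il22ra1, at chr5:153244817-153245066 (+), encodes a receptor chain for interleukin-22. Il22ra1 is the coding gene of a joined member, so its window is not among the 52 and is not that of the pseudogene AC135901 in the same locus.
Tpt1l3: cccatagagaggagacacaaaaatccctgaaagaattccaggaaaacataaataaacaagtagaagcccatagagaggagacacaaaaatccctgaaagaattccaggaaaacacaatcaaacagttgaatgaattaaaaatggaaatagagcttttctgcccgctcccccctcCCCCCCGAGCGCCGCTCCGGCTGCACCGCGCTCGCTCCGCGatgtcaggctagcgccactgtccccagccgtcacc
Tpt1: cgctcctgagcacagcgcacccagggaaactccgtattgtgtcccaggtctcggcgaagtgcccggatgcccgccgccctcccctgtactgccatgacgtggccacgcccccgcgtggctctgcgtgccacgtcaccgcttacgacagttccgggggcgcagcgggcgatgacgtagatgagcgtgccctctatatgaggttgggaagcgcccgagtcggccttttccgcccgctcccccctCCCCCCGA
Gsta4l1: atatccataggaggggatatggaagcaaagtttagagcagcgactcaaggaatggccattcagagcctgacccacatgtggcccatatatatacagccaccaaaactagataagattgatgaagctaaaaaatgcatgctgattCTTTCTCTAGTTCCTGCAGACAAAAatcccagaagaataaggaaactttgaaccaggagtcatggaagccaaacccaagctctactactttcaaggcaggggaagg
Pcbp1: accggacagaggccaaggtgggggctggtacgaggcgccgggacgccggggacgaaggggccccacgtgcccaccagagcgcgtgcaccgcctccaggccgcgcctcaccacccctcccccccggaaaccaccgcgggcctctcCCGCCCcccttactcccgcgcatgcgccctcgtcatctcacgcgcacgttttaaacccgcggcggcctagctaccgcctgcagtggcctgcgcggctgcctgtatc
Il22ra1: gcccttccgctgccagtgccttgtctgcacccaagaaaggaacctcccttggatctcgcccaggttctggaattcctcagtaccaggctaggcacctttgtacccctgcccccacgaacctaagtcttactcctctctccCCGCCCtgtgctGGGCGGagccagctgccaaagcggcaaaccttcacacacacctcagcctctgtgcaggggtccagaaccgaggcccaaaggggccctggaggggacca

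The run that Tpt1l3 shares with its parent was 41 bases long and began 76 bases before the annotated start of the copy, but only 8 bases before the start of Tpt1. In Gsta4l1 the shared run was 25 bases long and began 106 bases before the start of the copy, and 10 bases after the start of Gsta4. In both copies, letters of the parent's transcript thus lay in the window before the annotated start of the copy. Among the 18 copies for which both windows were found, the longest shared run ranged from 7 to 41 bases and reached 20 bases in 10. The GC box was present in 30.5% of all 33469 RefSeq windows and in 13 of the 52 windows of members. TATAAA was present in 12.9% of all windows and in 11 of members, CCAAT in 34% and in 22 of members, and TTCNNNGAA, the core of sites bound by STAT factors, in 7.67% and in 6 of members, in each case on either strand. The windows of Tpt1, Pcbp1 and Il22ra1 held GGGCGG but not the other letters searched, that of Tpt1l3 held TTCNNNGAA, and that of Gsta4l1 held none of them.

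Total counts per library ranged from 62288901 to 87040253 in STZ libraries and from 76500184 to 81139312 in NOR libraries. No 2 libraries of a group agreed within sampling noise. Krt12, the keratin of the corneal epithelium, stood at 3858 to 4455 FPKM in STZ libraries and at 3660 to 4223 in NOR libraries. FPKM are fragment counts scaled for the depth of the library and for a length of the locus. How that length was set is not stated, and the values of several long loci imply one shorter than their span on the genome. The 8 corneal epithelium markers summed to 15486 to 17229 FPKM in STZ libraries and 15548 to 15856 in NOR libraries, and the 8 leukocyte markers to 32.1 to 38.0 in STZ libraries and 35.5 to 37.9 in NOR libraries. The 3 conjunctival goblet cell markers found summed to 550 to 1223 FPKM in STZ libraries and 870 to 1442 in NOR libraries. Summed lens markers varied widely in both groups, from 8.68 to 1472 FPKM in STZ libraries and from 129 to 429 in NOR libraries. The 7 keratocyte markers found summed to 779 to 832 FPKM in STZ libraries, against 843 to 1068 in NOR libraries. The part of stromal cells in the differences below was not tested, and less RNA of a type of cell and fewer such cells cannot be told apart in bulk samples.

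The annotation typed 497 members as pseudogene without further detail, of 754 such rows, and a further 430 as processed pseudogene, of 721. Another 51 were typed as unprocessed pseudogene, of 112 rows. The remainder carried several types. In STZ libraries 820, 810 and 797 members were detected, against 828, 841 and 807 in NOR libraries, so the numbers overlapped. All 6 libraries had counts for 609 members, and 100 members had them in a single library. A count in STZ libraries alone was found for 75 members and in NOR libraries alone for 80. The share of all loci with counts in a single group was not computed, so these numbers have no background beside them. Of all members, 176 had fewer than 10 counts in all, 15 had 2 and 12 had only 1. A count of 0 in a library allowed up to 3 counts, and this limit covers counting error only.

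Annotated pseudogene loci were low on the whole. Their median over all 1042 was 0.28 FPKM (mean of the 6 libraries), against 2.71 FPKM for loci typed as protein coding alone. Of the members, 432 (41.5%) had a mean FPKM of at least 0.5, the level from which STZ and NOR were compared, against 71.4% of loci typed as protein coding alone. The tested member nearest to that limit was RGD1563601, at 0.509 FPKM, and the untested member nearest to it was AC131806, at 0.497 FPKM. A mean of at least 1 FPKM was reached by 327 members, 5 FPKM by 102, 10 FPKM by 45 and 100 FPKM by 6.

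The name of a locus did not always stand for a pseudogene alone. In 50 members the assembly had joined several annotated genes into 1 locus, and in 45 of these a protein-coding type was among the joined types. The 45 joined loci spanned a median of 70460 bases on the genome and the 992 members with a single name a median of 672 bases. Most of the reads of the whole set lay on these 45. They held 68.0% of all counts on members, and the single-name members held 31.5%. The reads of the coding gene and the pseudogene in a joined locus cannot be told apart in these tables.

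Pseudogene loci as a whole took 0.929%, 0.898% and 0.857% of the counts in the STZ libraries, against 0.902%, 0.893% and 0.876% in the NOR libraries. The means were 0.895% ± 0.036 in STZ and 0.890% ± 0.013 in NOR (SD, n = 3 each). The difference, STZ minus NOR, was 0.0047 percentage points and smaller than the spread between libraries (exact permutation test, two-sided, p = 0.90, where 3 against 3 libraries cannot give less than 0.10). Its sign turned with the choice of loci, and without the 45 joined loci it was -0.0092 percentage points (an alternative chosen after seeing the data).

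**Figure D1:**
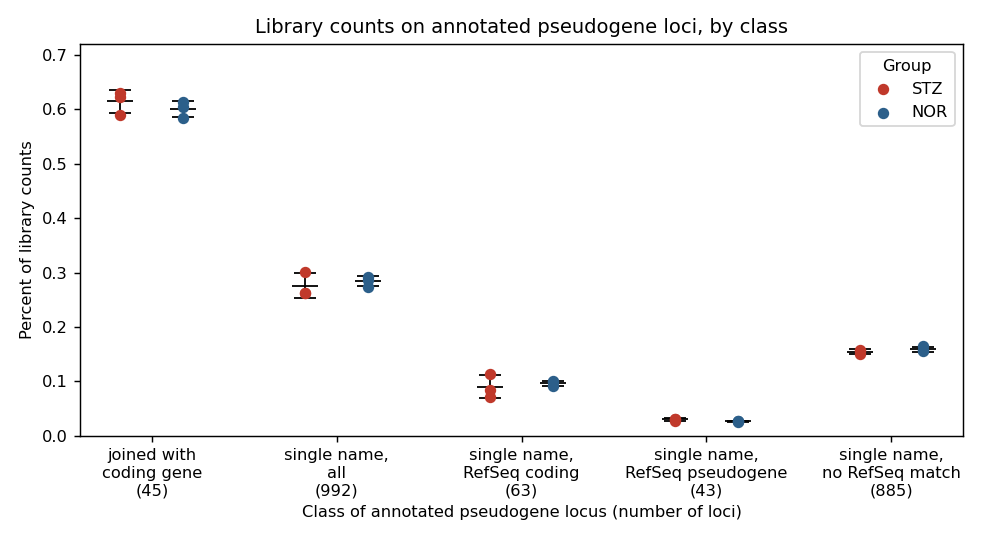
Percent of library counts on annotated pseudogene loci (vertical axis) by class of locus (horizontal axis), with 1 point per library, STZ left and NOR right in each class, and bars for the mean and SD of 3 libraries. The joined loci with a coding gene lie near 0.6% and the single-name loci between 0.26% and 0.30%, and STZ and NOR libraries overlap in every class plotted.

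The 5 joined loci without a coding type took few counts, 0.00406%, 0.00455% and 0.00382% in STZ libraries, against 0.00497%, 0.00502% and 0.00476% in NOR libraries. These did not overlap (exact permutation test, two-sided, p = 0.10, the smallest that 3 against 3 libraries can give, 1 of 16 sets of loci compared). The 45 joined loci with a coding type took 0.623%, 0.630% and 0.590% of counts in STZ libraries, against 0.604%, 0.613% and 0.585% in NOR libraries. A single locus at chr7:143270984-143317707 on the minus strand carries the name of the basal keratin gene Krt5 beside those of 3 further annotated genes. This locus held 24.2% of all counts on members. Its counts were 210720, 149294 and 115346 in STZ libraries and 174455, 169589 and 156328 in NOR libraries, and the groups overlapped. They are not all the reads of Krt5. A separate protein-coding locus named for Krt5, Krt72 and Krt1, 2208 bases away on the same strand, is not a member. It had 958742, 579196 and 675416 counts in STZ libraries and 824449, 827880 and 1081441 in NOR libraries. Other joined members with many reads carried Tpd52, Arhgef4 and Ell2. The locus with Tpd52, a gene of vesicle trafficking, had 34912, 20940 and 25022 counts in STZ libraries and 29919, 28905 and 32080 in NOR libraries. That with Ell2, an elongation factor of RNA polymerase II, had 34716, 22001 and 23388 counts in STZ libraries and 32448, 29540 and 36725 in NOR libraries.

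Single-name members took 0.302%, 0.263% and 0.263% of counts in STZ libraries, against 0.293%, 0.274% and 0.287% in NOR libraries. Their reads were concentrated: 17 of the 992 held 50 of every 100 counts on this class, and 154 held 90 of every 100. Clone names without further meaning were carried by 910 of them, LOC numbers by 41, RGD numbers by 11 and gene symbols by 30. RefSeq matched 107 of the 992, and listed 63 of these as protein coding and 43 as a pseudogene. The 63 protein-coding ones took 0.113%, 0.0718% and 0.0846% of counts in STZ libraries, against 0.0991%, 0.0914% and 0.0999% in NOR libraries. Of the 30 loci with a gene symbol, 28 were protein coding in RefSeq.

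The most abundant member apart from the Krt5 locus was AC095947, a processed pseudogene of only 75 bases at chr10:70109549-70109623 within Cct6b, a chaperonin subunit gene on the opposite strand. It stood at 570, 583 and 561 FPKM in STZ libraries, against 521, 396 and 564 in NOR libraries, from 2594 to 4233 counts, and the groups overlapped. FPKM divides by a length, and the span of this locus is the shortest of all members. A longer locus of the same clone name, of 509 bases, had 117, 149 and 169 counts in STZ libraries and 149, 243 and 163 in NOR libraries.

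Next came LOC100360791, the Tpt1 copy, at chr1:20115995-20116625 on the plus strand. RefSeq lists this copy as protein coding. Its FPKM were 543, 30.4 and 367 in STZ libraries, against 327, 302 and 337 in NOR libraries. STZ libraries thus held both the highest and the lowest value, while the NOR libraries were alike. LOC108353446, a copy of the ribosomal protein gene Rps2 at chr3:148283209-148284141 inside the oppositely oriented Bcl2l1, was even, at 250, 250 and 229 FPKM in STZ libraries and 285, 250 and 230 in NOR libraries. RefSeq matched no gene to it. AABR07006627, at chr1:243108432-243109080 inside Dock8 on the opposite strand, stood at 123, 102 and 92.7 FPKM in STZ libraries and 109, 111 and 123 in NOR libraries.

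Several further loci are listed as protein coding by RefSeq. Ubb, at chr10:48879935-48881881, encodes polyubiquitin, and had 122, 119 and 57.1 FPKM in STZ libraries, against 117, 121 and 121 in NOR libraries, with STZ replicate 3 below all others. AABR07073038, at chr4:118327533-118328602, is Pcbp1, an RNA-binding protein whose gene itself arose by retroposition, and had 108, 93.2 and 81.8 FPKM in STZ libraries, against 99.7, 96.2 and 98.5 in NOR libraries. Foxq1, a forkhead transcription factor gene, had 2483, 1043 and 830 counts in STZ libraries, against 1744, 2086 and 2597 in NOR libraries. All of these overlapped between the groups.

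**Figure D2:**
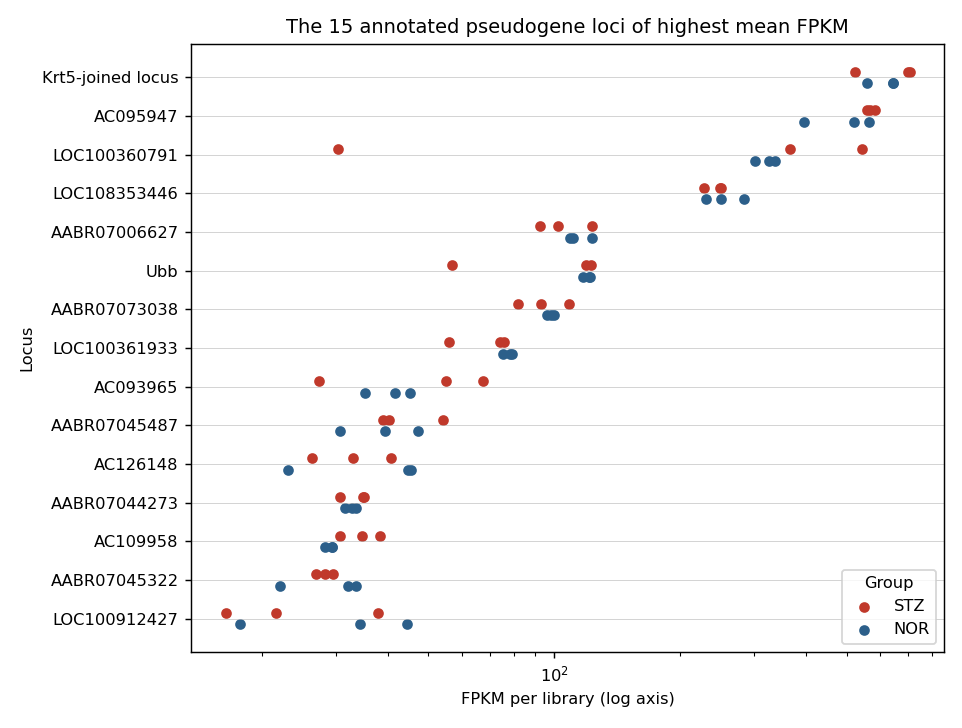
FPKM in each library (horizontal log axis) of the 15 annotated pseudogene loci of highest mean FPKM (vertical axis), with STZ libraries above and NOR libraries below on each line. LOC100360791 has an STZ library at 30.4 FPKM, against 302 to 337 FPKM in NOR libraries, whereas AABR07044273 lies between 30.7 and 35.0 FPKM in all 6.

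The other members among the 15 highest had means of 28.8 to 73.2 FPKM. LOC100361933, a copy of Rps12 that RefSeq lists as protein coding, had 74.0, 56.0 and 75.9 FPKM in STZ libraries and 75.4, 79.3 and 78.3 in NOR libraries. AC109958, which RefSeq names as a pseudogene of the chromatin reader gene Morf4l1, had 38.4, 30.7 and 34.7 FPKM in STZ libraries, against 28.4, 29.4 and 29.5 in NOR libraries, and the groups did not overlap (log2 fold change 0.27, SE 0.11, limma adjusted p = 0.953). AC126148 and AABR07045487 had no parent named in the files. AC126148 had 33.1, 40.7 and 26.3 FPKM in STZ libraries and 44.8, 45.5 and 23.1 in NOR libraries, and AABR07045487 had 38.9, 54.1 and 40.2 FPKM in STZ libraries and 39.3, 47.1 and 30.7 in NOR libraries.

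Descriptions or RefSeq names gave a parent gene for 84 members, from 74 parent genes. Ribosomal protein genes were the largest family, with 19 copies, followed by genes of mitochondrial proteins with 9, of RNA-binding and splicing proteins and of metabolic enzymes with 7 each, of the cytoskeleton with 6 and of glycolysis with 5. The other families had 4 copies or fewer, and of all 84 copies 67 were tested and none passed in limma. The ribosomal protein copies took 0.0449%, 0.0430% and 0.0422% of counts in STZ libraries, against 0.0495%, 0.0415% and 0.0406% in NOR libraries. Of the 19, 16 were tested and none passed in limma or edgeR, while DESeq2 called the Rpl19 copy AABR07071905, and their log2 fold changes ran between -0.50 and 1.76. The 5 glycolysis copies came from Ldha, Pkm, Eno1 and Tpi1, with log2 fold changes between -0.0044 and 0.20, and none passed in limma, edgeR or DESeq2. LOC688754, a pseudogene of the outer-membrane channel gene Vdac1, led the mitochondrial family at 14.6, 17.9 and 16.2 FPKM in STZ libraries and 14.1, 16.4 and 17.3 in NOR libraries. AABR07010649, a pseudogene of the initiation factor gene Eif3i, had 15.6, 15.1 and 12.7 FPKM in STZ libraries and 14.1, 15.2 and 13.3 in NOR libraries. Both lay within a narrow range in all 6 libraries. Copies of Hspa8, the constitutive heat shock cognate, were LOC688655 and LOC688932. LOC688655 had 10.05, 9.24 and 6.13 FPKM in STZ libraries, against 4.84, 5.59 and 6.92 in NOR libraries, with a log2 fold change of 0.48 (SE 0.19, limma adjusted p = 0.953).

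A locus with the parent's symbol was found in the tables for 78 of the 84 copies. The copy was the lower of the pair in FPKM in 66 and the higher in 12, and the median ratio of copy to parent was 0.103. The ratio varied among copies of abundant genes. The Eno1 copy LOC685431 had a mean of 1.58 FPKM against 189 FPKM for Eno1, and the Pkm copy LOC100364062 had 5.06 against 219 FPKM for Pkm, whereas the Tpt1 copy LOC100360791 had 318 against 658 FPKM for Tpt1. The Rps2 copy LOC108353446 was above its parent, with a mean of 249 FPKM against 111 FPKM for Rps2, and so was AC109958 per length, with 31.8 against 12.9 FPKM for Morf4l1. In counts AC109958 was below Morf4l1, and held 34.5%, 31.0% and 30.9% of the pair in STZ libraries, against 26.8%, 27.7% and 24.4% in NOR libraries. The copy of Rps2 held 70.2%, 66.5% and 72.5% of the counts of the pair in STZ libraries, against 70.5%, 67.9% and 74.8% in NOR libraries.

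In several pairs the counts of parent and copy moved against each other between libraries while their sum stayed nearly level. The copy of Tpt1 held 49.2%, 2.87% and 29.2% of the counts of the pair in STZ libraries, against 27.6%, 27.6% and 28.8% in NOR libraries. Copy and parent together had 792, 764 and 906 CPM (counts scaled to equal library depth) in STZ libraries and 852, 789 and 849 in NOR libraries. Over the 6 libraries the coefficient of variation was 51.8% for the copy, 18.7% for the parent and 6.4% for their sum. How the counting placed reads that fit both loci is unstated, and its part in these swings was not tested.

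The same was measured for Rps7 and its copy AABR07050545, a transcribed pseudogene in RefSeq. The copy had 3195, 480 and 374 counts in STZ libraries, against 968, 368 and 711 in NOR libraries, while Rps7 itself had 11578, 9050 and 10156 in STZ libraries and 12694, 11415 and 13566 in NOR libraries. The copy was thus highest in STZ replicate 1 alone. The coefficient of variation was 95.1% for the copy, 8.1% for Rps7 and 5.9% for the sum, of which the copy held 3.12% to 21.6%. LOC100912427, a copy of the cold-shock domain gene Ybx1, held 10.2%, 22.3% and 15.3% of the pair in STZ libraries, against 23.4%, 34.9% and 13.1% in NOR libraries. This copy is protein coding in RefSeq. Among 21 copies with a mean of at least 5 FPKM whose parent was not joined with another gene, 17 varied more than their parent, by the coefficient of variation of their depth-scaled counts. The Rpl13 copy AC093965, inside Anxa6 on the opposite strand, held 17.2%, 33.3% and 46.3% of the pair in STZ libraries, against 29.5%, 20.8% and 24.9% in NOR libraries. RefSeq lists AC093965 as protein coding too. LOC100359515, a transcribed pseudogene of the inducible nitric oxide synthase gene Nos2, was high where its parent was high. It had 270, 1420 and 462 counts in STZ libraries, against 594, 248 and 76 in NOR libraries, and Nos2 had 4919, 17023 and 9357 in STZ libraries, against 7020, 5160 and 2249 in NOR libraries.

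**Figure D3:**
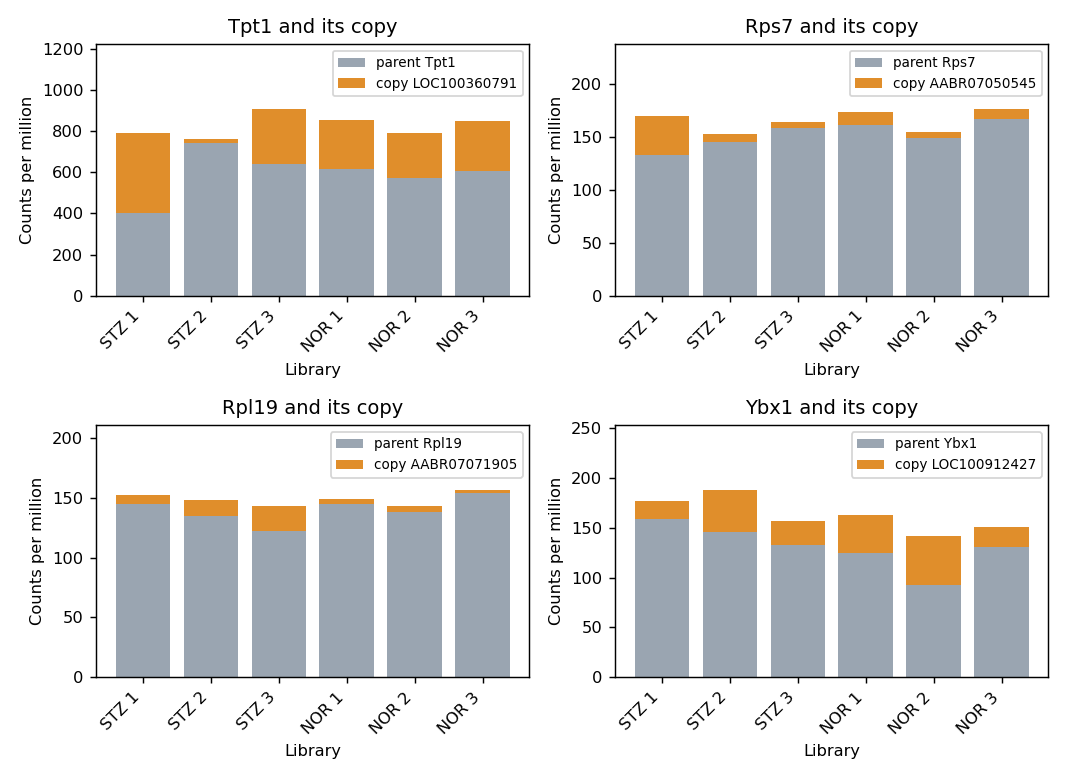
Depth-scaled counts (CPM, vertical axis) in the 3 STZ libraries, left, and the 3 NOR libraries, right, on 4 parent genes (grey) and on their annotated pseudogene copies (orange), stacked. RefSeq lists the copies of Tpt1 and Ybx1 as protein coding. The copy of Tpt1 holds 2.87% of the pair in STZ replicate 2 and 49.2% in STZ replicate 1, and the copy of Rpl19 is largest in STZ libraries while the total height of its bars lies between 143 and 156 CPM.

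STZ and NOR were compared at the 432 members of at least 0.5 FPKM, within a fit of all 42551 loci at or above that level. The log2 scale here is that of FPKM plus 1, which understates the change of low loci. No member passed (limma, adjusted p under 0.05 and fold over 1.2), against 0.0259% of all tested loci. Without adjustment 26 members had p under 0.05, 16 of them higher and 10 lower in STZ, which is 6.02% of the members, against 4.8% of all tested loci. The quasi-likelihood test of edgeR on the counts called none either, against 0.0141% of all loci. DESeq2 called 4 members, 0.926%, against 0.233% of all loci, and each of the 4 was higher in STZ libraries. Loci called by DESeq2 as higher in STZ made up 0.143% of all loci.

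The median log2 fold change of the 432 members was 0.017, against -0.0049 over all tested loci. The change was above 0 in 231 members and below 0 in 201, and ran between -1.18 and 1.76. A change of less than 1.2-fold was fitted for 71.5% of members and for 71.5% of all loci. In 20 members all STZ libraries lay above all NOR libraries, 4.63%, against 4.65% of all loci, and in 15 all STZ libraries lay below, 3.47%, against 4.87% of all loci. The 35 members without overlap are 8.10% of those tested, against 9.52% of all loci, so the share was close to the background. When a library was left out, the number without overlap ran from 66 to 100, as fewer libraries are more easily separated. The share over all loci was not computed with a library left out, so these numbers have no background beside them.

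**Figure D4:**
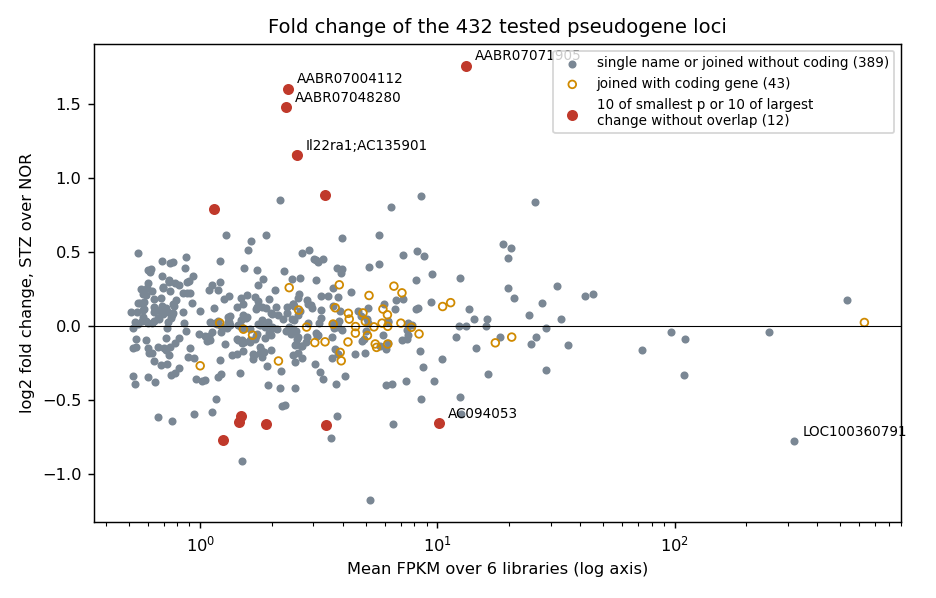
Fitted log2 fold change of STZ over NOR (vertical axis) against the mean FPKM of the 6 libraries (horizontal log axis) for the 432 tested pseudogene loci. Open circles are the 43 loci joined with a coding gene, grey points the other members, and red points are the 12 loci of smallest p or of largest change without overlap. Most points lie near 0, and 4 labelled loci lie above 1.

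AABR07004112 had the smallest p of the members. This pseudogene of 2532 bases lies at chr1:125877299-125879830 on the plus strand, inside Fam189a1 on the minus strand, and no parent is named for it in the files. It had 762, 807 and 840 counts in STZ libraries, against 101, 211 and 152 in NOR libraries, or 3.04, 4.48 and 4.51 FPKM against 0.44, 0.95 and 0.64 FPKM. Every STZ library was thus above every NOR library. The log2 fold change was 1.60 (SE 0.19), with a limma adjusted p of 0.119. On the counts it was 2.59 in both edgeR (adjusted p = 0.220) and DESeq2 (adjusted p = 3.32e-12). Over all alternatives its adjusted p ran from 3.32e-12 to 0.603, and DESeq2 alone called it. Fam189a1 had 3 counts in STZ replicate 1 and 0 in the other 5 libraries.

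The DESeq2 test also called the Rpl19 copy AABR07071905, at chr1:100675838-100676425, which shares its row with a microRNA type. RPL19 is a protein of the large ribosomal subunit. The copy had 664, 824 and 1365 counts in STZ libraries, against 269, 411 and 185 in NOR libraries, without overlap. Its log2 fold change was 1.76 (SE 0.40, limma adjusted p = 0.953), and on the counts 1.95 in both edgeR (adjusted p = 0.991) and DESeq2 (adjusted p = 0.00117). Rpl19, in a locus joined with AC135443, had 12619, 8409 and 7847 counts in STZ libraries and 11485, 10571 and 12500 in NOR libraries. Together they had 153, 148 and 143 CPM in STZ libraries and 149, 144 and 156 in NOR libraries, so the copy's share of the pair was 5.0%, 8.92% and 14.8% in STZ libraries, against 2.29%, 3.74% and 1.46% in NOR libraries.

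AABR07048280, a processed pseudogene at chr5:70749198-70749913, had 468, 176 and 93 counts in STZ libraries, against 39, 26 and 67 in NOR libraries. The log2 fold change was 1.48 (SE 0.36, limma adjusted p = 0.953), and on the counts 2.58 in both edgeR (adjusted p = 0.991) and DESeq2 (adjusted p = 0.00199). The STZ libraries ranged widely, from 1.74 to 6.59 FPKM, and the highest NOR library stood at 0.999 FPKM. The remaining call, at chr5:154077944-154106433, joins Il22ra1 with the pseudogene AC135901. It had 2159, 1594 and 1626 counts in STZ libraries, against 458, 1134 and 389 in NOR libraries. Its log2 fold change was 1.15 (SE 0.24, limma adjusted p = 0.953), against 1.60 in edgeR (adjusted p = 0.991) and 1.61 in DESeq2 (adjusted p = 0.0121). Interleukin-22 signals to epithelial cells through this receptor chain, and the reads of gene and pseudogene cannot be told apart in the joined locus. For each of these 3 further loci the highest adjusted p over the alternatives was 1.

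**Figure D5:**
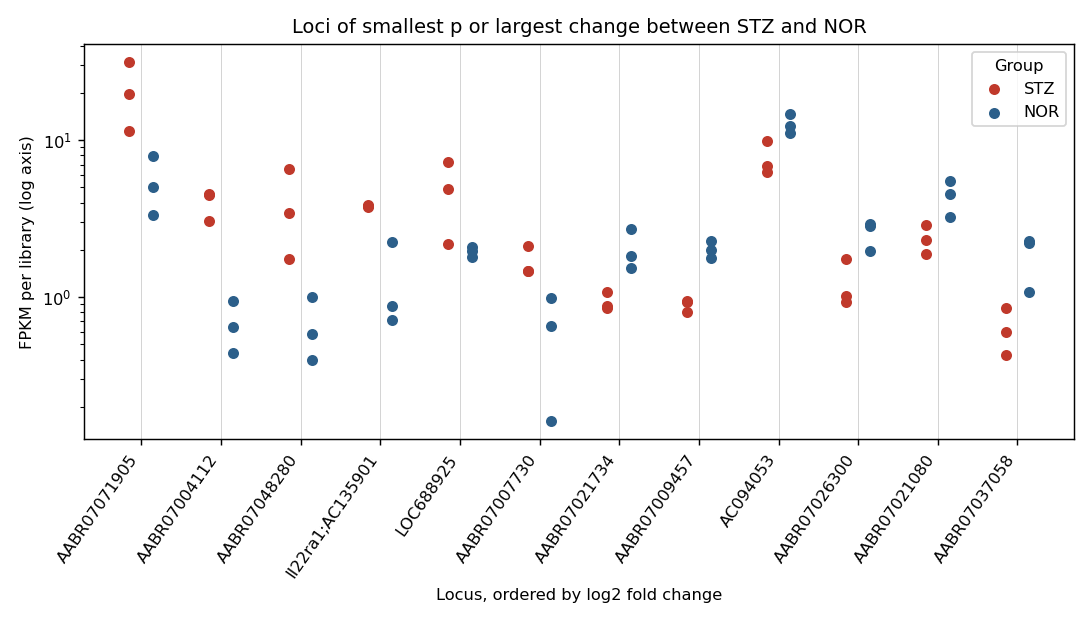
FPKM in each library (vertical log axis) of the 12 pseudogene loci of smallest p or largest change without overlap (horizontal axis, ordered by log2 fold change), with STZ left and NOR right. The 6 loci at the left were higher in every STZ library, and the 6 at the right lower, with AABR07004112 at 3.04 to 4.51 FPKM in STZ libraries against 0.44 to 0.95 in NOR libraries.

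Of the 6 loci plotted with lower values in STZ libraries, AC094053 had the most reads. This pseudogene of 4781 bases at chr2:104996717-105001497 had 3226, 3335 and 2207 counts in STZ libraries, against 6357, 5161 and 4933 in NOR libraries, with a log2 fold change of -0.66 (SE 0.18, limma adjusted p = 0.953). No other annotated locus overlaps it. AABR07009457, inside the zinc finger gene Zfhx4 on the same strand at chr2:98613709-98614045, had 32, 23 and 21 counts in STZ libraries, against 70, 59 and 56 in NOR libraries (log2 fold change -0.65, SE 0.16, limma adjusted p = 0.953), with -1.11 in edgeR on the counts. Zfhx4 itself had 11405, 5139 and 8214 counts in STZ libraries, against 11410, 13424 and 10562 in NOR libraries. Its fitted log2 fold change was -0.34 (SE 0.18, limma adjusted p = 0.953).

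The other 4 of these loci were low. AABR07021080, inside Dennd1b on the same strand, had 31, 28 and 36 counts in STZ libraries and 49, 67 and 86 in NOR libraries, and AABR07026300, inside Bag4 on the opposite strand, had 57, 24 and 23 in STZ libraries and 85, 57 and 90 in NOR libraries. AABR07021734 had 134, 76 and 82 counts in STZ libraries and 208, 169 and 319 in NOR libraries. AABR07037058, on the X chromosome inside Med14, had 16, 23 and 17 counts in STZ libraries and 77, 72 and 38 in NOR libraries. Their log2 fold changes lay between -0.77 and -0.61 in limma and between -1.52 and -0.88 in edgeR on the counts, and none passed in either or in DESeq2. Dennd1b itself had 1624, 1448 and 1424 counts in STZ libraries, against 1149, 1081 and 1617 in NOR libraries. Its fitted log2 fold change was 0.35 (SE 0.15, limma adjusted p = 0.953), opposite in sign to that of the member inside it. Where a member lies inside a gene on the same strand, strand cannot tell the reads of both apart. On the opposite strand they cannot be told apart if the counting did not use strand, which is not stated. Such overlap was common, since 351 of the 1042 members overlap another annotated locus, 121 on the same strand and 243 on the opposite strand.

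LOC688925, the Gsta4 copy shown above, lies at chr10:70424308-70424980 inside Slfn4 on the opposite strand, and RefSeq lists it as protein coding. It had 145, 349 and 242 counts in STZ libraries, against 119, 122 and 114 in NOR libraries, with a log2 fold change of 0.88 (SE 0.32, limma adjusted p = 0.953), and of 1.32 in edgeR on the counts. Gsta4, whose enzyme conjugates products of lipid peroxidation to glutathione, had 395, 127 and 136 counts in STZ libraries, against 728, 306 and 289 in NOR libraries (log2 fold change -0.67, SE 0.35, limma adjusted p = 0.953). Slfn4 had 7111, 9698 and 7734 counts in STZ libraries and 6133, 6488 and 7402 in NOR libraries (log2 fold change 0.44, SE 0.21, limma adjusted p = 0.953). AABR07007730, at chr2:26085846-26086265, had 62, 64 and 46 counts in STZ libraries, against 7, 37 and 26 in NOR libraries (log2 fold change 0.79, SE 0.26, limma adjusted p = 0.953), with 1.49 in edgeR on the counts.

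Single libraries set the values of some members. Of the 102 members with a mean of at least 5 FPKM, 19 (18.6%) differed by more than 3-fold between the highest and the lowest library, against 3.43% of loci typed as protein coding alone at that level, and the median ratio was 1.65, against 1.34. This difference was not tested. AABR07033236, at chr11:12275964-12277727, had 9, 968 and 407 counts in STZ libraries, against 1095, 0 and 468 in NOR libraries. LOC102553828, a copy of Spata13 that RefSeq lists as protein coding, had 389, 255 and 481 counts in STZ libraries, against 357, 492 and 29 in NOR libraries. Ier2, an immediate early gene, had 7794, 2602 and 2914 counts in STZ libraries, against 5448, 560 and 6217 in NOR libraries, on a locus of 21052 bases. The groups overlapped at each of these loci, although the lowest value was in a NOR library. It was in NOR replicate 2 for AABR07033236 and Ier2, and in NOR replicate 3 for LOC102553828. The Tpt1 copy LOC100360791 and the Rpl19 copy AABR07071905, both described above, were also among the 5 of largest ratio. At AABR07071905 every STZ library lay above every NOR library.

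AABR07072761, at chr2:195856117-195856980, passed only when NOR replicate 1 was left out. It had 159, 155 and 131 counts in STZ libraries, against 98, 883 and 940 in NOR libraries, and the log2 fold change was -1.18 with all libraries (limma adjusted p = 0.953) and -2.00 without NOR replicate 1 (limma adjusted p = 0.0376, the lowest over its alternatives, which reached 1). Untyped loci beside it had the same pattern: one that carries the name of Tuft1, 1218 bases away, had 443, 468 and 477 counts in STZ libraries, against 389, 3409 and 3358 in NOR libraries. The locus of Tuft1 and Cgn had 27270, 30193 and 26547 counts in STZ libraries, against 30571, 37511 and 39730 in NOR libraries.

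No member was at 0 in every library of a group with at least 50 counts in every library of the other. Of 427 members with at least 50 counts in a library, 11 (2.58%) were at 0 in another, against 4.51% of all loci with that many counts and 2.19% of loci typed as protein coding alone. Ado, which encodes a thiol dioxygenase, had 453, 243 and 228 counts in STZ libraries and 452, 369 and 0 in NOR libraries. An untyped locus of the same name 147 bases further on had 1363, 795 and 775 counts in STZ libraries and 1140, 1212 and 1300 in NOR libraries, so NOR replicate 3 lacked counts only at the first. AC139642, which RefSeq gives as the skin protease gene Asprv1, had 258, 0 and 16 counts in STZ libraries, against 172, 216 and 192 in NOR libraries.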

How the data were processed

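RNA of scraped corneal epithelium was measured in 3 STZ and 3 NOR libraries. Per the labels, cutadapt, FastQC, Bowtie2 and build rn6 were used by the authors, with no versions. The counting program, its use of strand and its treatment of reads that fit several loci were not given in the sources used here. The authors deposited raw counts and FPKM for 61453 loci, and the FPKM placeholder at a count of 0 was set to 0.

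FPKM plus 1 was put on the log2 scale, quantile-normalized across libraries, for the 42551 loci whose mean reached 0.5, and compared with limma 3.58.1 in R 4.3.3 (eBayes with trend). To pass, a locus needed a fold over 1.2 and an adjusted p under 0.05 (Benjamini-Hochberg, over all tested loci). Counts were also tested with edgeR 4.0.16 (quasi-likelihood) and DESeq2 1.42.0. The fits were tested on simulated data first. Other alternatives were the pseudocount, filter, normalization, trend, fold threshold, replicate block and leaving out each library. Shares of counts were compared by exact permutation.

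The members and lists were chosen with earlier results of these data known. Gene names rarely gave a parent, so parents came from the description column and RefSeq names, after these had been seen. Members with a single name were matched to RefSeq by NCBI gene ID (44), LOC number (32), symbol (28) or synonym (3). Loci were named if among the 15 of highest mean FPKM, the 10 of smallest p, the 10 of largest change without overlap of the groups, the 5 of largest ratio between libraries at 5 FPKM or more, or the most abundant of a family of at least 3 tested, with their parents. The rule also took passing members and those at 0 in 1 group with at least 50 counts in every library of the other, of which there were none. Further loci, such as Foxq1, Ado and those called only by an alternative, were added after their values were seen. Figures were drawn with matplotlib.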

Additional observations from a re-analysis of the deposited data

How the results depend on the processing

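The number of pseudogene loci passing was 0 in the reported fit and 4 with DESeq2, and ran from 0 to 1 when each library was left out. It was 0 with edgeR, without quantile normalization, with a pseudocount of 0.1, with a mean FPKM of at least 1, without a filter, without the eBayes trend, without the fold threshold, and after the 45 joined loci or also the loci that RefSeq lists as protein coding had been set aside (both chosen after seeing the data). The difference in the share of counts, 0.0047 percentage points, turned to -2.56e-05 over typed loci only, -0.0082 in summed FPKM, -0.0039 without the Krt5 locus, -0.0090 without members that overlap another annotated locus, -0.0092 without the joined loci and -0.0016 without these and the loci RefSeq lists as protein coding. It ran from -0.0124 to 0.0235 when each library was left out, and was negative without STZ replicate 1 and without NOR replicate 3. None of these passed (exact permutation p from 0.3 to 1), and the cause was not tested. The number of members without overlap of the groups was 35, between 29 and 37 under the other settings with all libraries, and 66 to 100 with a library left out. For these alternatives the share over all loci was not computed. The median log2 fold change ran from 0.0083 to 0.0347 with a library left out. Without quantile normalization the median was -0.000115, against -0.0213 over all loci, and with a mean FPKM of at least 1 it was 0.0026. The 13 single loci followed under alternatives kept their direction in all 169 values, of which 5 were past the threshold. All but AABR07072761 had been chosen for a small p or a large change, and their groups did not overlap. Leaving out a library can then hardly turn the sign, so the kept direction of these loci followed largely from the choice. Replicate numbers are shared by the groups but did not pair the libraries (correlations of same-numbered libraries -0.0092, 0.0251 and 0.0323). With the replicate block 0 members passed in limma, with a median log2 fold change of 0.0173, and 0 in edgeR, and the mean within-number difference in share was 0.0047 percentage points. At the lower depths the counts of low members limit what can be seen, since 176 members had fewer than 10 counts in all.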

Other observations

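Loci without an annotated type lay beside several pseudogene loci and carried their names, and some held larger contrasts than the annotated locus. Each was chosen after its values were seen. The locus 451 bases after AC131483, on chromosome 3, had 339, 231 and 275 counts in STZ libraries, against 54, 55 and 34 in NOR libraries, and rose in STZ by 2.31 on the log2 scale (SE 0.17, limma adjusted p = 0.017). AC131483 itself had 2146, 1245 and 1259 counts in STZ libraries and 1716, 1450 and 1570 in NOR libraries, with a log2 fold change of 0.11 (SE 0.11, limma adjusted p = 0.962).

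The locus 465 bases after AABR07044273 had 59, 27 and 28 counts in STZ libraries, against 1349, 1531 and 38 in NOR libraries (log2 fold change -2.59, SE 0.98, limma adjusted p = 0.953), so NOR replicate 3 lay with the STZ libraries. AABR07044273 itself was among the most even of the abundant members. The locus 100 bases after AC139642, the Asprv1 locus, had 13, 42 and 22 counts in STZ libraries, against 191, 114 and 217 in NOR libraries, without overlap (log2 fold change -1.68, SE 0.28, limma adjusted p = 0.793). A plus-strand locus without a type that overlaps the Krt5-joined locus had 48463, 51731 and 61278 counts in STZ libraries, against 73857, 59030 and 158372 in NOR libraries.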
